A study of Sus scrofa with 18 samples.

Results

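Group IM5 was compared with group CON on 12 of the 18 arrays of the series, 1 array for each of 6 pigs per group, over all 25388 probe sets of the array. Group IM5 was fed a diet in which 5% insect meal from Tenebrio molitor (yellow mealworm larvae) took the place of 50% of the soybean extraction meal. Group CON was fed the diet with 0% insect meal, in which soybean extraction meal was left in full. Both diets were isonitrogenous and carried added amino acids, but cellulose was added only to the diets with insect meal, so the groups also differed in fibre. All pigs were male crossbreds, Piétrain crossed with German Landrace and German Edelschwein, were 5 weeks old at the start, were fed for 4 weeks and were killed in the fed state on day 29. The tissue was gastrocnemius, a calf muscle made mostly of fast fibres. The pigs shared pens of 3 or 4, and since the labels do not assign pigs to pens, effects of the pen cannot be told apart from those of single pigs. The 6 remaining arrays came from group IM10, which received 10% insect meal and no soybean extraction meal, and they are used below only to show where group IM5 differed from the higher dose.

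Muscle mass and metabolism are set by a balance between growth signals, which drive protein synthesis through insulin and IGF receptors, and breakdown programmes, in which FOXO transcription factors switch on ubiquitin ligases and autophagy genes. Contraction, stretch and handling at slaughter induce within minutes a set of early response genes such as ATF3, MYC and BTG2. Fuel use is adjusted through glycolytic regulators such as PFKFB3, and satellite cells, the muscle stem cells, respond to growth factors such as HGF and FGF6.

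The values are log2 expression values, so a difference of 1 is a doubling, and levels are not compared between genes. Array medians lay between 4.91 and 5.00, and any 2 of the 12 arrays correlated between 0.981 and 0.991 across probe sets. The defining genes of skeletal muscle were bright in every pig: MYH1, the main fast myosin heavy chain, lay between 12.56 and 13.09 in group IM5 and between 12.75 and 12.96 in group CON. The liver gene ALB lay between 3.11 and 3.81 in group IM5 and between 3.30 and 3.68 in group CON. A transcript was said to rise or fall when the unadjusted P of limma was under 0.05 and the fold change (FC) was beyond 1.2, the thresholds of the study. By this rule 276 transcripts rose in group IM5, which is 1.09% of those tested, and 256 fell, which is 1.01%. Together these are 532 transcripts, or 2.10%. An unadjusted limma P under 0.05 alone was reached by 939 transcripts (3.70%). Without any difference between the groups, about 1 in 20 would be expected to reach it, which is more than were seen. None passed a Benjamini-Hochberg adjusted p of 0.05 in limma (0.00%). The smallest limma adjusted p over all transcripts was 0.951, and that of every transcript named below was 0.998 or higher. The rises and falls that follow are therefore descriptions at an unadjusted threshold, and none of them held after correction.

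One array stood somewhat apart. IM5 replicate 6 had a mean correlation of 0.983 with the other arrays, below the 0.985 or more of the other 11 arrays of groups IM5 and CON, and the highest summed level of slow fibre genes and the lowest of adipocyte markers among the 12 pigs. Results that rest on that pig are given without it.

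Among the 124 rises and 126 falls with 1 gene name were genes of muscle breakdown, of the early response, of the actin cytoskeleton, of glucose use and of retinoid handling. Outside the dimmest 30% of probe sets (a mean level of 3.95 or less), the largest rise with 1 gene name was that of FBXO32 and the largest falls were those of ATF3 and BTG2. The lists of genes used below held 1295 probe sets in 39 pathway lists, of which 21 rose and 24 fell. These 45 are 3.47% of the probe sets listed, against 2.10% of all, and 17 of the 39 lists held no transcript that passed. The lists were chosen with earlier results of these data known, so a share above that of all transcripts was favoured by the choice. Counts in the single lists below stand beside the same 2.10%.

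**Figure D1:**
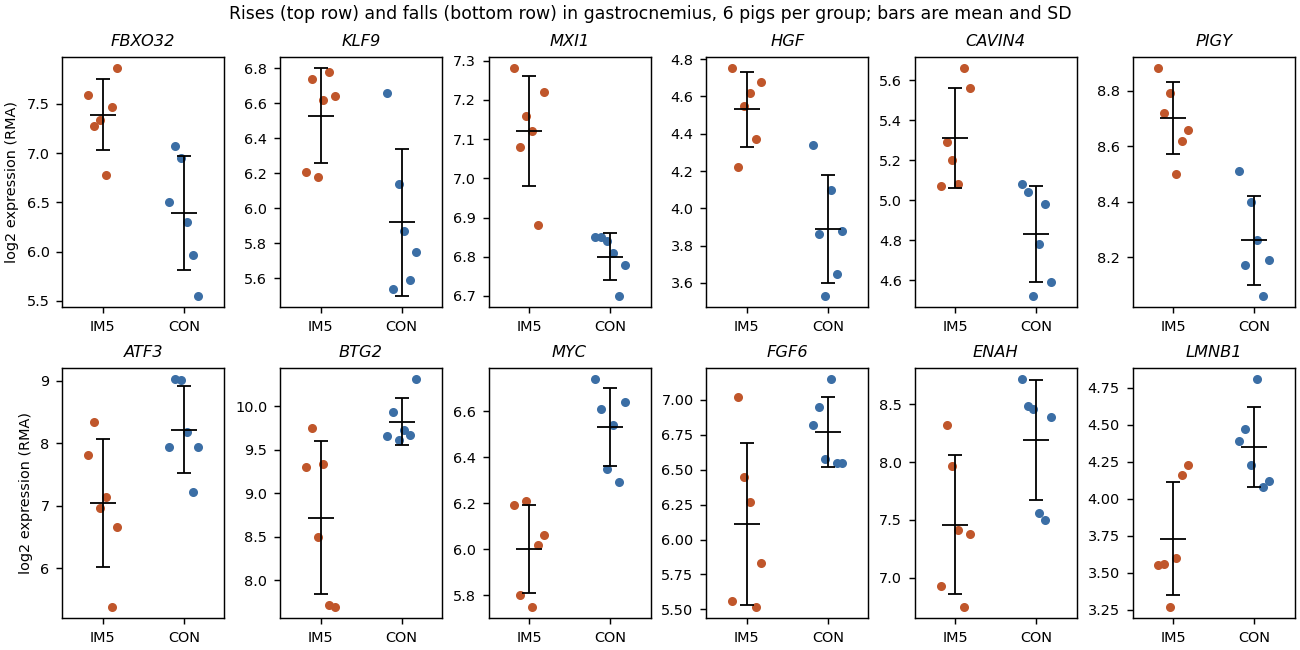
Log2 expression (vertical axes) of 12 transcripts in each pig of group IM5 (orange, left) and group CON (blue, right), with the mean and SD of 6 pigs in black; each panel has its own axis. The top row shows rises and the bottom row falls, and only for MXI1 and MYC do the groups not overlap.

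FBXO32 (atrogin-1), the muscle ubiquitin ligase that rises in fasting and wasting, rose in group IM5. Its level was 6.78 at the lowest, 7.41 at the median and 7.86 at the highest in group IM5, against 5.55, 6.40 and 7.07 in group CON. The lowest pig of group IM5 lay inside the range of group CON and the other 5 lay above it. The change was 1.00 on the log2 scale with a standard error of 0.22 (adjusted p = 0.998 in limma), and it lay between 0.83 and 1.13 when each pig was left out in turn. UBB, 1 of the genes that encode ubiquitin itself, rose by 0.33 (standard error 0.12). It ranged between 10.45 and 10.89 in group IM5 and between 10.02 and 10.79 in group CON. FBXO21, another F-box subunit of ubiquitin ligases, rose by 0.28 (standard error 0.10). All pigs of group IM5, at 6.35 to 6.70, lay above all pigs of group CON, at 5.97 to 6.33, but the fold change is close to the threshold, and the change was 0.24 without IM5 replicate 6 or CON replicate 5 and 0.25 without CON replicate 3, each of which ended the call.

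FBXO32, UBB and FBXO21 were the only transcripts to pass of 23 probe sets for FOXO and muscle atrophy genes, and none fell. The median log2 change of the 23 was 0.11, with 17 higher and 6 lower in mean in group IM5, beside a median of 0.00 over all transcripts. The transcription factors themselves did not pass: FOXO1 had a log2 change of -0.15 and FOXO3 of 0.10. Neither did the autophagy genes MAP1LC3B (0.16, or 0.10 without IM5 replicate 6) and SQSTM1 (0.10) or the E3 ligase gene FBXO30 (0.20). None of 37 proteasome probe sets passed, and their median was 0.03.

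A pair of transcription factors rose beside FBXO32. KLF9, a zinc finger factor induced by glucocorticoids and thyroid hormone, had 6.18, 6.63 and 6.78 as lowest, median and highest in group IM5, against 5.54, 5.81 and 6.66 in group CON. The 6.66 of CON replicate 1 reached into the range of group IM5. All pigs of group IM5 lay above the mean of group CON, and the log2 change was 0.60 (standard error 0.21). MXI1, which competes with MYC for its partner MAX, ranged between 6.88 and 7.28 in group IM5 and between 6.70 and 6.85 in group CON, with no overlap. Its log2 change was 0.32 (standard error 0.08). DBP, a clock output factor, did not pass at 0.39 (standard error 0.26), or 0.24 without IM5 replicate 6, and none of the 16 probe sets of the circadian clock passed.

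Growth factor genes of muscle moved in both directions. HGF, the hepatocyte growth factor that activates satellite cells, rose: its level was 4.22, 4.59 and 4.75 in group IM5, against 3.53, 3.87 and 4.34 in group CON, as lowest, median and highest. All pigs of group IM5 except replicate 2 lay above every pig of group CON. CXCR4, the receptor of the chemokine CXCL12 on satellite and immune cells, rose by 0.30 (standard error 0.11), but without IM5 replicate 5 the change was 0.23 and no longer passed. FGF6, a fibroblast growth factor made almost solely by muscle, fell, with 5.52, 6.05 and 7.02 in group IM5 against 6.55, 6.70 and 7.15 in group CON. IM5 replicate 2, at 7.02, was the only pig of its group inside the range of group CON. The log2 change was -0.66 (standard error 0.23).

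These were 2 rises and 1 fall among 32 probe sets for myogenic and satellite cell genes, with a median log2 change of 0.06. MET, the receptor of HGF, did not pass (0.16), nor did MYOG, the factor of terminal myogenic differentiation (0.20), nor MYOD1 (0.09). Of 32 probe sets for the IGF, insulin and myostatin axis, none passed, and the median was -0.02. IGF1 was at -0.02 (standard error 0.16) and MSTN, the inhibitor of muscle growth, at -0.04 (standard error 0.27). CAVIN4, a coat protein of caveolae in muscle, rose, with 5.07, 5.25 and 5.66 in group IM5 against 4.52, 4.88 and 5.08 in group CON and a log2 change of 0.48 (standard error 0.13). IM5 replicates 1 and 4 shared the range of group CON, and the other 4 pigs lay above it.

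**Figure D2:**
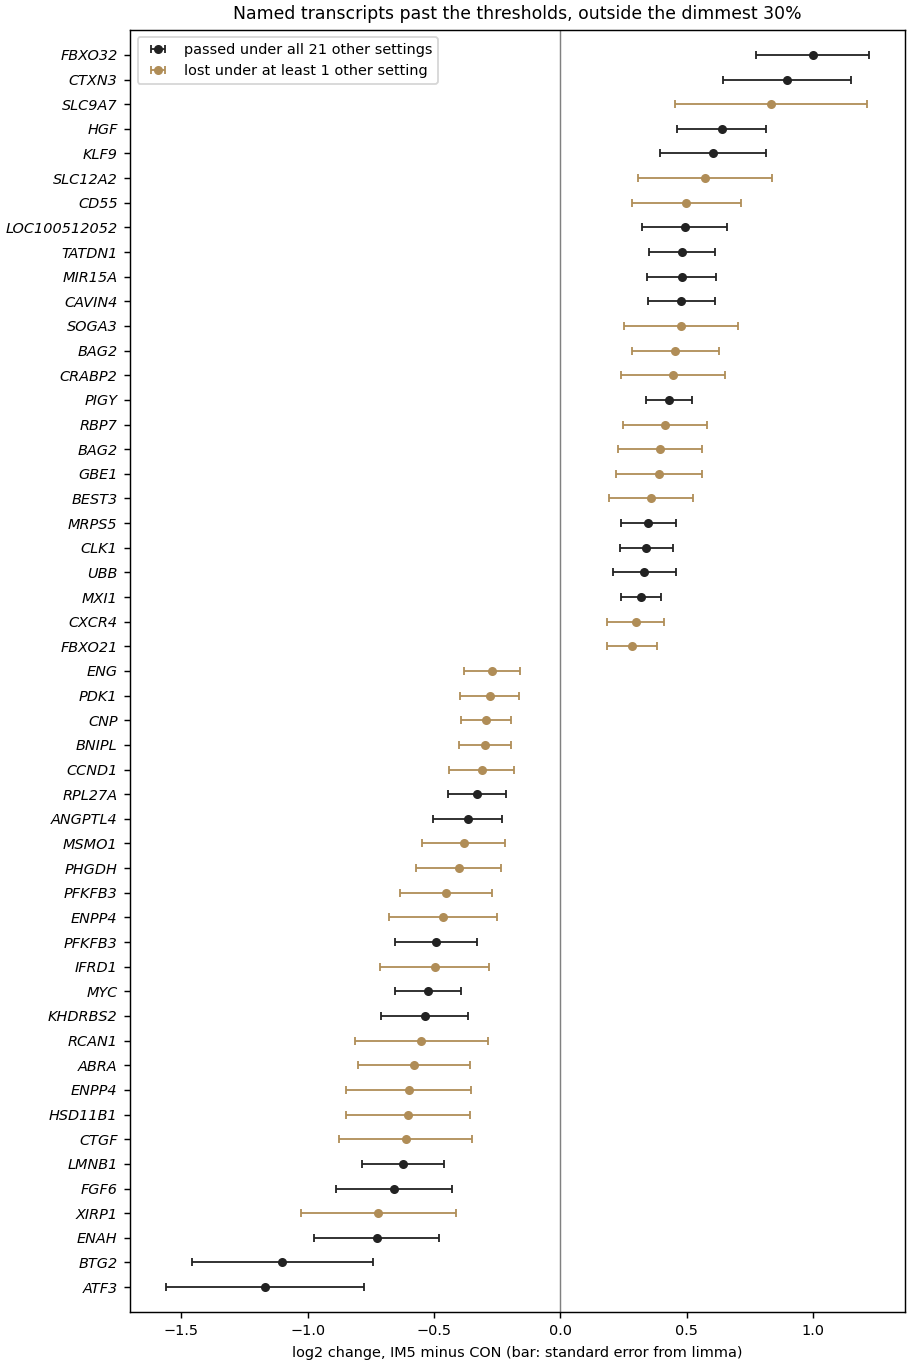
Log2 change, group IM5 minus group CON (horizontal axis; bars are standard errors from limma), of the named transcripts that rose or fell and lie outside the dimmest 30%. Black points passed the thresholds under each of the 21 other settings that held the probe set, among them FBXO32, HGF, MYC, BTG2 and ATF3. Brown points were lost under at least 1. The black points of LMNB1 and PFKFB3 are probe sets that the setting with 1 probe set per gene name left out.

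Falls were found in the early response genes, but few of them. ATF3, a stress-induced transcription factor, had 5.39, 7.06 and 8.34 as lowest, median and highest in group IM5, against 7.23, 8.06 and 9.03 in group CON. Of the 6 pigs of group IM5, 4 lay below every pig of group CON. The log2 change was -1.17 (standard error 0.39), and it lay between -0.84 and -1.43 when each pig was left out. MYC, the growth-promoting transcription factor, ranged between 5.75 and 6.21 in group IM5 and between 6.29 and 6.74 in group CON, with no overlap, and its log2 change was -0.52 (standard error 0.13). These were the only transcripts to pass of 16 probe sets listed as AP-1, EGR and NR4A early transcription factors. The list takes in MYC, which is of none of these families. The median of the list was 0.00. JUN was at -0.32 (standard error 0.30), FOS at 0.06 (standard error 0.36) and EGR1 at 0.03 (standard error 0.15). NR4A3, a nuclear receptor induced by exercise, was at -0.60 (standard error 0.35) and did not pass.

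BTG2, an antiproliferative gene of the early response, separated the pigs of group IM5 more than those of group CON. Its level was 9.30, 9.75, 8.50, 9.34, 7.72 and 7.70 in IM5 replicates 1 to 6, against 9.66, 9.93, 9.61, 9.73, 9.67 and 10.31 in CON replicates 1 to 6. IM5 replicate 2 alone lay inside the range of group CON, and replicates 5 and 6 were the lowest. The SD was 0.88 in group IM5 and 0.27 in group CON, and the log2 change was -1.10 (standard error 0.36). Of 22 probe sets for growth arrest and early stress regulators, 3 fell, namely BTG2, IFRD1 and RCAN1, none rose, and the median was 0.02. IFRD1, a regulator of myogenic transcription, fell by 0.50 (standard error 0.22). The range was 7.00 to 7.96 in group IM5 and 7.32 to 8.60 in group CON, and the call was lost without any of 5 single pigs (IM5 replicates 3, 4 and 5, CON replicates 1 and 3), with -0.36 as the smallest change. RCAN1, the inhibitor of calcineurin, fell by 0.55 (standard error 0.26). That fall rested on 2 control pigs, since CON replicates 1 and 3 had 7.32 and 7.75, whereas the other control pigs lay between 5.73 and 6.09 and group IM5 between 5.67 and 6.18. Without CON replicate 3 the log2 change of RCAN1 was -0.30, and the call was also lost without any of IM5 replicates 1, 3, 4 and 5 or CON replicate 1. It did not pass in a fit of groups IM5 and CON only, after quantile normalization or median centring, with array weights, with a trended and robust prior or by the test of the methods.

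Genes of the actin cytoskeleton and its transcriptional control fell in part. ENAH, which promotes actin filament growth at the cell edge, fell by 0.73 (standard error 0.25). Its level was 6.75, 7.40 and 8.32 in group IM5, against 7.50, 8.43 and 8.72 in group CON, and 4 pigs of group IM5 lay below every control pig. ABRA, the actin-binding activator of SRF signalling also known as STARS, had 8.49, 9.11 and 9.66 in group IM5, against 9.17, 9.69 and 10.03 in group CON. All pigs of group IM5 lay below the mean of group CON, and the log2 change was -0.58 (standard error 0.22). Without IM5 replicate 5, the lowest pig, the change was -0.46 and did not pass. XIRP1, an actin-binding protein of growing and regenerating fibres, fell by 0.72 (standard error 0.31) and CTGF, a matrix growth factor and YAP target, by 0.61 (standard error 0.26). Both calls rested on several pigs: XIRP1 was lost without any of IM5 replicates 4, 5 and 6 and CON replicates 1, 2 and 3, and CTGF without any of IM5 replicates 3 and 5 and CON replicates 1, 3 and 6. Their smallest changes were -0.57 and -0.40.

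ABRA, XIRP1 and CTGF were the 3 falls among 27 probe sets for SRF and YAP target genes. Without IM5 replicate 5, none of the 27 fell. None rose, 19 had a lower and 8 a higher mean in group IM5, and the median was -0.05. ANKRD1, the stretch-responsive ankyrin repeat protein, had a log2 change of -1.04 but a standard error of 0.54, with 5.66, 7.39 and 9.42 in group IM5 against 7.84, 8.87 and 9.30 in group CON, and did not pass. SRF itself was at -0.01. LMNB1, lamin B1 of the nuclear envelope, was measured by 2 probe sets that differed. The dimmer one fell, with 3.27, 3.58 and 4.23 in group IM5 against 4.08, 4.31 and 4.81 in group CON and a log2 change of -0.62 (standard error 0.16), and the brighter one did not pass at -0.19 (standard error 0.10).

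**Figure D3:**
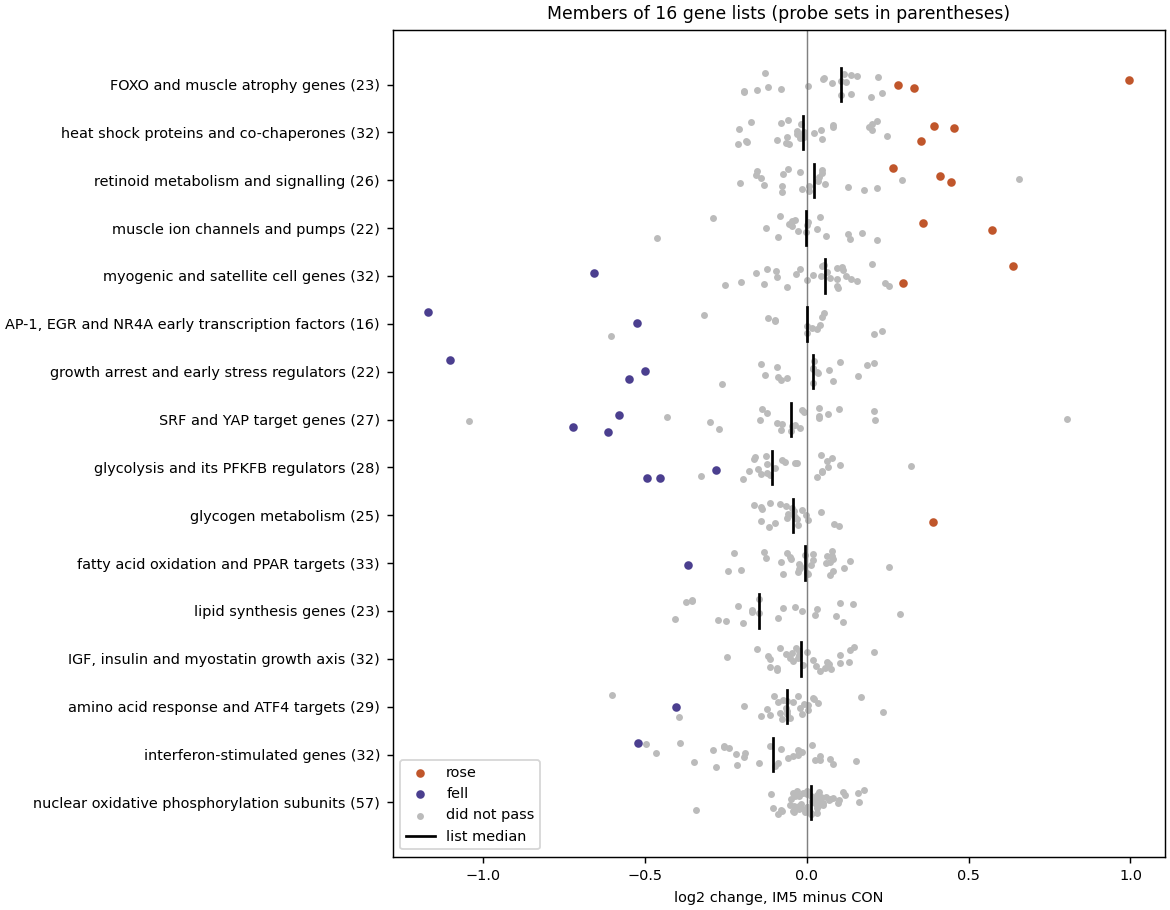
Log2 change, group IM5 minus group CON (horizontal axis), of every probe set in 16 gene lists, picked for display after the values were seen. Orange points rose, violet points fell, grey points did not pass and black bars are list medians; the points of the early factor, growth arrest and SRF lists that passed are all falls, and those of the FOXO and retinoid lists are all rises.

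In glucose metabolism, PFKFB3 and PDK1 were the only genes of the glycolysis list to pass. PFKFB3, which makes the activator of phosphofructokinase, fell on both of its probe sets, by 0.49 (standard error 0.16) and 0.45 (standard error 0.18). On the first of these its level was 5.21, 5.74 and 6.23 in group IM5, against 5.81, 6.26 and 6.77 in group CON, and all pigs of group IM5 lay below the mean of group CON. The second was lost without IM5 replicate 1 or 6 or CON replicate 2, with -0.32 as the smallest change. PDK1, the kinase that inhibits pyruvate dehydrogenase, fell by 0.28 (standard error 0.12). That call was lost without IM5 replicate 5, where the change was -0.19, without IM5 replicate 6 and without CON replicate 5. These were 3 falls and no rise among 28 probe sets, with a median of -0.11 and 19 lower means. Without IM5 replicate 6 the median was -0.01 and 1 of the 28 fell. GAPDH was at -0.04 (standard error 0.06), LDHA at -0.10 and the glucose transporter gene SLC2A4 at -0.14, while HK2, hexokinase of muscle, was at 0.32, or 0.18 without IM5 replicate 6, and did not pass.

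GBE1, the glycogen branching enzyme, was the single transcript to pass of 25 probe sets for glycogen metabolism. It rose by 0.39 (standard error 0.17), with 7.14, 7.41 and 7.94 in group IM5 against 6.74, 7.12 and 7.65 in group CON. The call was lost without any of 4 single pigs (IM5 replicates 1 and 6, CON replicates 2 and 3), the smallest change being 0.30. The median of that list was -0.04.

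Lipid genes changed little. Of 33 probe sets for fatty acid oxidation and PPAR targets, only ANGPTL4, the inhibitor of lipoprotein lipase, passed. It fell, with 4.38, 4.88 and 5.17 in group IM5 against 4.99, 5.21 and 5.48 in group CON, and the log2 change was -0.37 (standard error 0.14). All pigs of group IM5 lay below the mean of group CON. None of 23 lipid synthesis probe sets passed, although 16 had a lower mean in group IM5 and the median was -0.15. Without IM5 replicate 6 that median was -0.03, and without CON replicate 1 it was -0.09. SCD, the stearoyl-CoA desaturase, was at -0.41 with a standard error of 0.39, and at -0.06 without IM5 replicate 6. Of 20 probe sets for cholesterol synthesis and uptake, MSMO1, a sterol demethylating enzyme, fell by 0.38 (standard error 0.16), and the call was lost without any of IM5 replicates 4 and 6 and CON replicates 5 and 6, with -0.26 as the smallest change. HSD11B1, which regenerates active cortisol in tissues, fell by 0.60 (standard error 0.24). The range of HSD11B1 was 5.02 to 6.39 in group IM5 and 5.55 to 7.03 in group CON, and its call was lost without any of IM5 replicates 2 and 5 and CON replicates 3 and 5, the smallest change being -0.44.

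None of the 57 nuclear oxidative phosphorylation probe sets passed, and the median of 0.01 lay beside 0.00 for all transcripts. The 9 mitochondrially encoded probe sets also held none, with a median of 0.01, as did the 22 probe sets for AMPK, PGC-1 and mitochondrial biogenesis, with -0.01.

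Genes for the handling of retinoids, the vitamin A compounds, held 3 rises and no fall among 26 probe sets. RBP7, a cellular retinol-binding protein, had 3.98, 4.27 and 4.83 in group IM5, against 3.42, 3.96 and 4.22 in group CON. Its log2 change was 0.41 (standard error 0.17), and without IM5 replicate 2 it was 0.31 and did not pass, nor did it without CON replicate 3. CRABP2, which carries retinoic acid to its nuclear receptor, rose by 0.44 (standard error 0.21). CON replicate 3, at 5.34, stood above the other control pigs, which lay between 4.05 and 4.44, and group IM5 lay between 4.42 and 5.49. The change was 0.63 without that control pig. The call on CRABP2 was lost without any of 8 single pigs (IM5 replicates 2, 5 and 6, CON replicates 1, 2, 4, 5 and 6), the smallest change being 0.32. BCO2, an enzyme that cleaves carotenoids, rose by 0.27 (standard error 0.12) among the dimmest 30% of probe sets. It too was lost without any of 6 single pigs (IM5 replicates 4 and 5, CON replicates 1, 2, 3 and 5), the smallest change being 0.17. The median of the list was 0.02.

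The probe set shared by LOC100512656 and LOC100626199, which the study names as a retinol dehydrogenase, had the largest rise of all transcripts. The values of IM5 replicates 1 to 6 were 8.24, 4.63, 8.55, 8.43, 7.62 and 7.36, and those of CON replicates 1 to 6 were 7.73, 4.48, 3.90, 4.70, 6.04 and 5.66. The rise was 2.05 on the log2 scale (standard error 0.67). IM5 replicate 2 lay with the low control pigs and CON replicate 1 with the high pigs of group IM5. An unnamed probe set (15343371) with a log2 change of 1.65 split the pigs in the same way, at 5.72 in IM5 replicate 2 and 7.60 in CON replicate 1. The probe set that carries the name RDH16 alone did not pass, with a log2 change of 0.66 and a standard error of 0.41.

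SLC12A2, SLC9A7 and BEST3, which carry ions across membranes, rose, and each call rested on a few pigs. SLC12A2, the sodium-potassium-chloride cotransporter NKCC1, had 7.97, 8.37 and 9.70 in group IM5, against 7.70, 7.90 and 8.65 in group CON. IM5 replicates 5 and 6, at 9.15 and 9.70, lay above all control pigs. The log2 change was 0.57 (standard error 0.26). The smallest change, 0.36, was that without IM5 replicate 6, and the call was also lost without any of IM5 replicate 5 and CON replicates 1, 3, 5 and 6. SLC9A7, a sodium-proton exchanger of the trans-Golgi network, rose by 0.83 (standard error 0.38), with 4 pigs of group IM5 between 6.01 and 6.65 and replicates 2 and 4 at 4.66 and 4.59, against 4.33 to 5.87 in group CON. The call was lost without any of 8 single pigs (IM5 replicates 1, 3, 5 and 6, CON replicates 1, 2, 4 and 5), with 0.65 as the smallest change. BEST3, a member of the bestrophin family of chloride channels, rose by 0.36 (standard error 0.17). It was likewise lost without any of 8 single pigs (IM5 replicates 1, 5 and 6, CON replicates 2 to 6), with 0.24 as the smallest change. SLC12A2 and BEST3 were the 2 rises among 22 probe sets for muscle ion channels and pumps, whose median was 0.00.

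SLCO1A2, an organic anion transporter, was among the dimmest 30% and was high in only some pigs of group IM5. Its level was 3.92, 4.30 and 4.40 in IM5 replicates 1, 5 and 6 and 1.61 to 2.12 in the other 3 pigs, against 1.49 to 1.81 in group CON. The log2 change was 1.38 (standard error 0.56), and it was lost without any of the 3 high pigs, with 1.11 as the smallest change over all pigs left out.

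Few amino acid genes passed. Of 103 probe sets in 4 lists, 2 fell and none rose, which is 1.94%, near the 2.10% of all transcripts. PHGDH, the first enzyme of serine synthesis, fell by 0.40 (standard error 0.17), with 4.43, 4.82 and 5.25 in group IM5 against 4.63, 5.16 and 5.73 in group CON. That call was lost without any of IM5 replicate 6 and CON replicates 2 and 4, with -0.30 as the smallest change. It was the single transcript to pass of 29 probe sets for the amino acid response, in which ASNS, the asparagine synthetase, was at -0.60 (standard error 0.39) and PSAT1, the next enzyme of serine synthesis, at -0.40 (standard error 0.28), and 22 of the 29 means were lower in group IM5. SLC1A1, a glutamate transporter, fell by 0.34 (standard error 0.12) among 22 transporter probe sets, 17 of which had a lower mean. That probe set is among the dimmest 30%, and all pigs of group IM5 but replicate 3 lay below every control pig. None of the 25 probe sets for arginine, urea cycle and polyamine metabolism passed. ARG2, the mitochondrial arginase, was at -0.81 with a standard error of 0.42, and its pigs ran between 3.22 and 6.48 in group IM5 and between 5.48 and 6.48 in group CON. Without IM5 replicate 6, the lowest pig, ARG2 was at -0.43 and ASNS at -0.36. None of 31 probe sets for amino acid breakdown passed, and their median was 0.00.

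Other named rises lay outside these lists. PIGY, a subunit of the enzyme that starts the synthesis of glycosylphosphatidylinositol anchors, had 8.50, 8.69 and 8.88 in group IM5, against 8.06, 8.23 and 8.51 in group CON. The lowest pig of group IM5 lay just under the highest control pig. Its rise of 0.43 (standard error 0.09) had the smallest unadjusted P among transcripts with 1 name. TATDN1, a nuclease family member, rose by 0.48 (standard error 0.13), with 6.17 to 6.97 in group IM5 and 5.94 to 6.19 in group CON. CTXN3, a cortexin family membrane protein, rose by 0.90 (standard error 0.25). It ranged between 5.40 and 7.69 in group IM5 and between 4.94 and 5.45 in group CON, and the change was 0.60 without IM5 replicate 6, the highest pig. LOC100512052 rose by 0.49 (standard error 0.17), with 3.85 to 4.50 in group IM5 and 3.09 to 4.25 in group CON. CD55, which protects cells from complement, rose by 0.50 (standard error 0.22) and SOGA3 by 0.48 (standard error 0.23). Those calls were lost without any of 6 single pigs for CD55 (IM5 replicates 4 and 6, CON replicates 2, 4, 5 and 6) and 9 for SOGA3 (IM5 replicates 1, 3, 5 and 6, CON replicates 1, 3, 4, 5 and 6), with smallest changes of 0.37 and 0.36.

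Among genes of protein and RNA handling, BAG2, a co-chaperone of HSP70, rose on both of its probe sets, by 0.46 (standard error 0.17) and 0.39 (standard error 0.17). IM5 replicate 6 had the highest value on both, 7.51 and 6.99, and without it the changes were 0.32 and 0.26 and neither passed. The second was also lost without any of IM5 replicate 5 and CON replicates 2, 5 and 6. HSF5, a heat shock factor family member among the dimmest 30%, rose by 0.35 (standard error 0.12), or 0.24 without IM5 replicate 4, which ended the call. These were the 3 rises among 32 probe sets for heat shock proteins and co-chaperones, whose median was -0.01. CLK1, a kinase that phosphorylates splicing factors, rose by 0.34 (standard error 0.11), with 6.86 to 7.45 in group IM5 and 6.51 to 6.99 in group CON. It was the single transcript to pass of 30 splicing probe sets. Of 57 mitochondrial ribosomal probe sets MRPS5 alone passed and rose, by 0.35 (standard error 0.11), and of 50 cytosolic ribosomal probe sets RPL27A alone passed and fell, by 0.33 (standard error 0.12). None of 23 probe sets for the unfolded protein response passed. CCND1, the cyclin of G1 phase, fell by 0.31 (standard error 0.13) as the single transcript to pass of 21 proliferation probe sets, and BNIPL, an apoptosis-associated gene, fell by 0.30 (standard error 0.10) as the single one of 22. CCND1 was lost without any of IM5 replicates 3 and 6 and CON replicates 1, 5 and 6, with -0.26 as the smallest change, and BNIPL without IM5 replicate 1 or 5, with -0.25.

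Further large falls were those of ENPP4 and KHDRBS2. ENPP4, an ectoenzyme that cleaves nucleotides, fell on both probe sets, by 0.60 (standard error 0.25) and 0.46 (standard error 0.21). On the first, the groups overlapped, with 4.07 to 5.46 in group IM5 and 4.77 to 5.57 in group CON. Both calls were lost without any of IM5 replicates 2, 5 and 6 and CON replicate 5, and the second also without CON replicates 1, 4 and 6, with -0.48 and -0.34 as the smallest changes. KHDRBS2, an RNA-binding protein, fell by 0.54 (standard error 0.17), with 3.68, 4.41 and 4.69 in group IM5 against 4.49, 4.86 and 5.04 in group CON.

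MicroRNA genes, whose transcripts are processed to short RNAs that repress messenger RNAs, held 5 rises and 4 falls among 177 probe sets, with a median of 0.02. These calls are 5.08% of the list, against 2.10% of all transcripts, and 132 of the 177 are among the dimmest 30%. MIR29C, of a family known for targeting collagen messages, had 3.63, 3.88 and 4.43 in group IM5, against 2.95, 3.38 and 3.75 in group CON. It rose by 0.59 (standard error 0.14), and all pigs of group IM5 but replicate 5 lay above every control pig. MIR15A, of a family that restrains the cell cycle, rose by 0.48 (standard error 0.14), with 4.35 to 4.94 in group IM5 and 3.72 to 4.57 in group CON. MIRLET7C rose by 0.45, MIR181B-2 by 0.37 and MIR425 by 0.30. MIR98, of the let-7 family, fell by 0.57 (standard error 0.23), a call lost without any of IM5 replicates 3 and 5 and CON replicates 1 and 6, with -0.45 as the smallest change. MIR30D fell by 0.36 (standard error 0.11), MIR204 by 0.32 (standard error 0.11) and MIR103-1 by 0.30 (standard error 0.14). All of these except MIR15A are among the dimmest 30%, where small differences in signal weigh most.

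Of the 276 rises, 142 lay among the dimmest 30% of probe sets, as did 109 of the 256 falls. The larger named rises there included LOC100620475, at 2.58 to 3.71 in group IM5 and 2.30 to 2.68 in group CON, and DAPP1, a signalling adaptor of lymphocytes, at 2.18 to 3.30 in group IM5 and 1.98 to 2.51 in group CON. Their log2 changes were 0.58 (standard error 0.18) and 0.51 (standard error 0.19). HKDC1, a hexokinase domain protein, rose by 0.39 (standard error 0.10) at 2.73 to 3.18 in group IM5 and 2.30 to 2.79 in group CON. LOC100155374 rose by 0.39 (standard error 0.10), and all pigs of group IM5 lay above all of group CON. Among the falls, KLRK1, the activating receptor NKG2D of natural killer cells, fell by 0.57 (standard error 0.25). Its range was 2.74 to 3.42 in group IM5 and 2.87 to 4.33 in group CON, and the call was lost without any of IM5 replicates 2, 4 and 6 and CON replicates 1, 5 and 6, with -0.43 as the smallest change. GRIN2A, a subunit of the NMDA glutamate receptor, fell by 0.55 (standard error 0.19), with 2.05 to 3.10 in group IM5 and 2.72 to 3.67 in group CON.

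Of all transcripts, 23 had every pig of group IM5 above every pig of group CON (0.0906% of those tested) and 15 had every pig below (0.0591%), or 38 together (0.150%). Without any difference between the groups, such a separation has a probability of 0.00216 for each transcript (two-sided exact permutation), which is above the share seen. Besides MXI1, FBXO21, LOC100155374 and MYC, the named ones of the 38 that passed included some picked here after their values were seen. PROB1 rose by 0.39 (standard error 0.10), with 6.95 to 7.19 in group IM5 and 6.44 to 6.94 in group CON. EFNA3, an ephrin ligand, rose by 0.31 (standard error 0.09), and PARD3B, a cell polarity protein, by 0.41 (standard error 0.12). PNCK, a calmodulin-dependent kinase, fell by 0.42 (standard error 0.12), with 4.77 to 5.44 in group IM5 and 5.48 to 5.90 in group CON. NARS2, which charges mitochondrial tRNA with asparagine, fell by 0.34 (standard error 0.12), with 6.49 to 6.80 in group IM5 and 6.82 to 7.19 in group CON.

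Slow fibre genes gave a wide spread and no call. All 16 probe sets for slow fibre contractile genes had a higher mean in group IM5, with a median log2 change of 0.43, but none passed. TNNC1, the slow troponin C, was at 0.64 with a standard error of 0.61, and MYH7, the slow myosin heavy chain, at 0.48 with a standard error of 0.52. The level of MYH7 was 9.93, 10.65 and 12.20 in group IM5, against 8.59, 10.53 and 11.58 in group CON. Summed per pig, the log2 level of the slow fibre genes was 12.97, 13.74 and 15.28 in group IM5, against 12.37, 13.51 and 14.45 in group CON, so the groups overlapped over most of their range. Without IM5 replicate 6, the highest pig, the median over the list was 0.11, and without CON replicate 2, the lowest, it was 0.17. CSRP3, a muscle LIM protein, ended at 10.83 in IM5 replicate 6 and at no more than 7.74 in the other pigs on one of its probe sets. Of 15 probe sets for fast fibre genes, 14 had a lower mean in group IM5 and none passed, with a median of -0.08, or -0.01 without IM5 replicate 6. PVALB, the calcium buffer of fast fibres, was at -0.34 (standard error 0.27), or -0.07 without that pig. Likewise without it, TNNC1 was at 0.34, MYH7 at 0.21 and CSRP3, on the probe set with 10.83, at 0.08. Both probe sets of MYH7B, both of MYL6B and the other of CSRP3 then turned negative, at -0.21 to -0.03. The remaining slow fibre probe sets stayed positive. Which part of the muscle each sample was cut from is not given, and its part in these values was not tested.

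**Figure D4:**
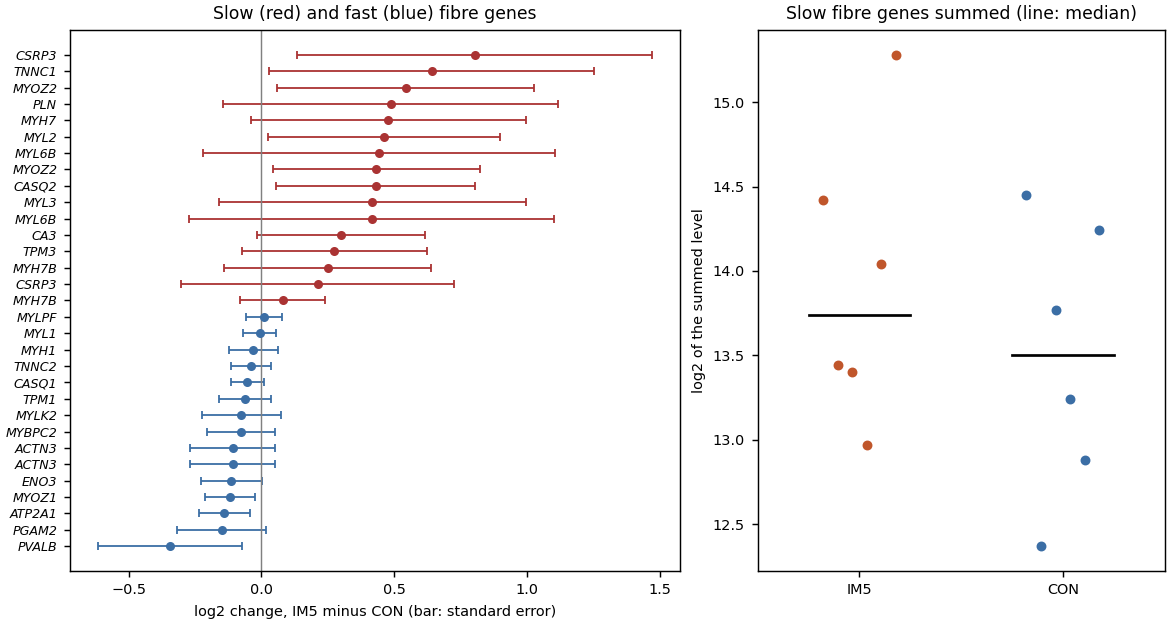
Left, log2 change (group IM5 minus group CON; bars are standard errors) of 16 slow fibre probe sets in red and 15 fast fibre probe sets in blue; right, log2 of the summed level of the slow fibre genes in each pig of group IM5 (orange) and group CON (blue), with the median as a line. All red points lie above 0 with wide bars, and the sums, 12.97 to 15.28 in group IM5 and 12.37 to 14.45 in group CON, overlap.

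Of the marker lists of other cell types, 3 held 1 transcript each that passed. In muscle homogenate, fewer cells of a type and less RNA per cell cannot be told apart. None of 20 macrophage and monocyte probe sets passed, and their summed log2 level was 10.34 to 11.10 in group IM5 and 10.19 to 11.33 in group CON. None of 20 lymphocyte probe sets passed, with sums of 9.68 to 10.06 in group IM5 and 9.67 to 10.53 in group CON. None of 18 fibroblast, 13 pericyte and smooth muscle, 12 adipocyte and 12 red cell and tendon probe sets passed either. Of the adipocyte probe sets, 9 had a lower mean in group IM5, with a median of -0.17, or 0.00 without IM5 replicate 6. Of the red cell and tendon probe sets, 10 had a higher mean, with a median of 0.13, or 0.09 without CON replicate 1, and sums of 8.90 to 9.77 in group IM5 and 8.56 to 9.37 in group CON. The adipocyte sum was 10.22 in IM5 replicate 6 and 10.96 or more in every other pig. TNMD, a tendon gene, reached 4.94 and 5.58 in IM5 replicates 2 and 6, against at most 3.51 in group CON, and did not pass at 1.00 (standard error 0.51), or 0.59 without replicate 6. ENG, an endothelial receptor, fell by 0.27 (standard error 0.11) as the single one of 15 endothelial probe sets, of which 13 had a lower mean and whose median was -0.07. ENG did not pass after quantile normalization or median centring, nor without any of 5 single pigs (IM5 replicates 4 and 5, CON replicates 1, 5 and 6), with -0.21 as the smallest change. PADI4, an enzyme of granulocytes, rose by 0.29 (standard error 0.09) among 11 granulocyte and mast cell probe sets, and CNP, a myelin enzyme, fell by 0.29 (standard error 0.10) among 11 Schwann cell probe sets. PADI4 did not pass without IM5 replicate 6 or CON replicate 6, at 0.25 at the least, and CNP without IM5 replicate 4 or CON replicate 5, at -0.23 at the least.

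Immune signalling genes held single calls. CXCL11, an interferon-induced chemokine, fell as the only one of 32 interferon-stimulated probe sets, with 2.91, 3.11 and 3.35 in group IM5 against 3.29, 3.54 and 4.03 in group CON. It is among the dimmest 30%, and all pigs of group IM5 but replicate 4 lay below every control pig. Of the 32, 25 had a lower mean in group IM5 and the median was -0.10, with -0.04 without CON replicate 1 and -0.23 without IM5 replicate 5 as the extremes when each pig was left out. GBP1 was at -0.47 (standard error 0.26), CXCL9 at -0.49 (standard error 0.35) and CXCL10 at -0.39 (standard error 0.36), or -0.19 without IM5 replicate 6, and none of these passed. Of 101 chemokine, interleukin and receptor probe sets, CXCR4 rose and CXCL11 fell. None of 14 probe sets for chitin-binding and digesting proteins passed, chitin being the polymer of insect cuticle, and their median was 0.02. None of 35 probe sets for methionine sulfoxide reduction and antioxidant genes and none of 88 for collagens, laminins and matrix remodelling passed.

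The genes that the study singled out in this muscle were chosen there from group IM10 against the same control pigs, so their values in group IM5 are not independent of that choice. With two-sided exact permutation tests over all arrangements of the 6 pigs against 6, 6 of 21 probe sets, those of the qPCR reference genes GAPDH and ATP5G1 included, had an unadjusted p under 0.05, and none a p under 0.05 after Benjamini-Hochberg correction over the 21. The 6 became 3 without CON replicate 2 or 3, 4 without any of IM5 replicates 1, 3, 4 and 6 and CON replicate 4, and at most 8, without IM5 replicate 2. OCIAD2 and GPA33, which the study also singled out, were matched to no probe set by name and were not analysed here. The smallest exact p-values were those of CLK1 and BTG2, at 0.0108 each, or 0.113 after correction. The log2 change of BTG2 was -1.10 in these data, and all 6 pigs of group IM5 lay below the mean of group CON. ABRA followed with an exact permutation p of 0.0238, or 0.152 after correction. Genes of that choice that did not pass in group IM5 were JUN, OLFM3, VAV1, SOX2, ATF5, PDZD9, ENHO and ARG2. ENHO, which encodes the hormone adropin, was at 8.10 in IM5 replicate 6 and between 9.70 and 10.84 in the other pigs of group IM5, against 10.00 to 10.81 in group CON. The log2 change of ENHO was -0.42, and -0.02 without that pig. SOX2 was at 0.18 and VAV1 at 0.14. Of the reference genes of the qPCR, ATP5G1, a subunit of ATP synthase, was at -0.04 (standard error 0.18) and GAPDH ranged between 13.02 and 13.23 in group IM5 and between 13.16 and 13.21 in group CON.

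Group IM5 was then set against group IM10 within the same fit, because levels at 5% insect meal need not lie between those at 0 and 10%. In group IM5, 335 transcripts were higher (1.32% of those tested) and 363 lower (1.43%) than in group IM10, or 2.75% either way, and an unadjusted limma P under 0.05 was reached by 1324 (5.22%). None passed an adjusted p of 0.05 (0.00%), and the smallest limma adjusted p was 0.259. By the same rule 2.29% of transcripts rose or fell in group IM10 against group CON. The comparisons of both groups with group CON share the control pigs, so they are given side by side and not set against each other.

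FBXO32 averaged 6.39 ± 0.58 at 0%, 7.39 ± 0.36 at 5% and 6.70 ± 0.34 at 10% insect meal (SD, n = 6 each). The difference of group IM5 from group IM10 was 0.68 (standard error 0.22, limma adjusted p = 0.931). KLF9 averaged 5.92 ± 0.42, 6.53 ± 0.27 and 5.84 ± 0.50 at these doses, and the difference was 0.69 (standard error 0.21, limma adjusted p = 0.931). Both genes were higher at 5% than at either other dose in mean, and both differences were past the unadjusted thresholds under every setting tried. All genes of this paragraph were named for their change from group CON in the same arrays of group IM5. That choice by itself favours a difference from group IM10, and it does so under every setting. LOC100515044, among the dimmest 30%, averaged 1.91 ± 0.17, 2.35 ± 0.16 and 1.91 ± 0.16, with a difference of 0.44 (standard error 0.10, limma adjusted p = 0.838). LMNB1, on its dimmer probe set, averaged 4.35 ± 0.27, 3.73 ± 0.38 and 4.23 ± 0.26, with a difference of -0.50 (standard error 0.16). ENAH, at 8.19 ± 0.52, 7.46 ± 0.60 and 7.99 ± 0.27, and KLRK1, at 3.66 ± 0.60, 3.09 ± 0.26 and 3.80 ± 0.53, were likewise lowest at 5% in mean. The difference for ENAH, -0.53, was lost with median centring, with a trended and robust prior and without any of 8 single pigs (IM5 replicates 1, 4, 5 and 6, IM10 replicates 1, 3, 4 and 5), with -0.39 as the smallest. That for KLRK1, -0.72, passed in every setting that held its probe set, which is among the dimmest 30%.

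In mean, ATF5, BTG2 and ABRA were nearer to group CON in group IM5 than in group IM10. The study chose these genes, and ATF3, for their change in group IM10 against group CON in the same arrays. That choice by itself favours a larger change in group IM10, so no dose pattern is drawn from it. ATF5, a stress transcription factor, averaged 5.84 ± 0.27, 5.77 ± 0.41 and 6.44 ± 0.52 at 0, 5 and 10% insect meal, with a difference of group IM5 from group IM10 of -0.66 (standard error 0.21). BTG2 averaged 9.82 ± 0.27, 8.72 ± 0.88 and 7.96 ± 0.84. Its difference of 0.76 (standard error 0.36) was lost with the replicate number as a block, with a trended and robust prior and without any of 8 single pigs (replicates 1, 2, 3 and 4 of group IM5 and 1, 2, 4 and 5 of group IM10), with 0.55 as the smallest. ABRA averaged 9.66 ± 0.32, 9.09 ± 0.41 and 8.68 ± 0.54, and its difference of 0.41 (standard error 0.22) was not past the thresholds. ATF3 averaged 8.22 ± 0.70, 7.05 ± 1.02 and 6.95 ± 0.57, and HGF 3.89 ± 0.29, 4.53 ± 0.20 and 4.44 ± 0.46. For these genes groups IM5 and IM10 differed by 0.10 (standard error 0.39) and 0.09 (standard error 0.17), less than the spread between pigs.

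**Figure D5:**
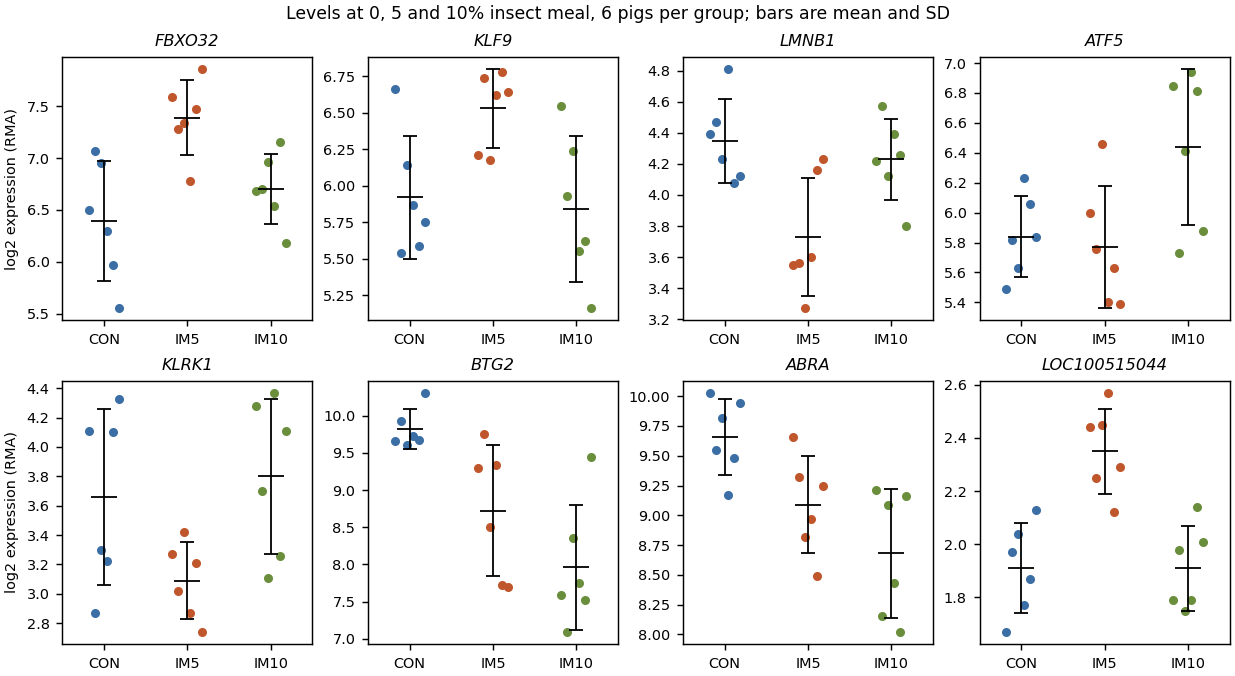
Log2 expression (vertical axes) of 8 transcripts in each pig at 0% (CON, blue), 5% (IM5, orange) and 10% insect meal (IM10, green), with the mean and SD of 6 pigs in black; each panel has its own axis. The means of FBXO32, KLF9 and LOC100515044 are highest and those of LMNB1 and KLRK1 lowest at 5%, while BTG2 and ABRA are lower at each higher dose in mean. The study chose BTG2, ABRA and ATF5 for their change in group IM10, which by itself favours a larger change there.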

How the data were processed

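Gastrocnemius RNA of 6 pigs per group was hybridised by the authors to Porcine Gene 1.0 ST arrays. The authors deposited log2 expression values from RMA in Affymetrix Expression Console (background correction, normalization between arrays, summary of the probes of each transcript). The genome build behind the probe design is not given in the sources used here. The values were used as deposited. The number of arrays limits the precision, and p-values treat pigs as independent although pigs shared pens.

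Probe sets were named from the annotation of the platform: 13327 carried 1 name, 357 several and 11704 none, and 12804 of the single names matched a current RefSeq gene record. A name in several genes, such as LOC100512656 and LOC100626199, cannot be split by the probes. SDHA and RPS9, reference genes of the qPCR, had no probe set under these names, and ATP5G1 is the older symbol of ATP5MC1.

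limma 3.58.1 under R 4.3.3 was fitted to all 18 arrays with 1 mean per group, with a P threshold of 0.05, a fold change threshold of 1.2 and Benjamini-Hochberg adjustment over 25388 probe sets. Two-sided exact permutation tests used Python 3.11.15 with scipy 1.17.1. Named transcripts are the 12 largest rises and falls with 1 name outside the dimmest 30%, the 4 largest within it, the 10 with the smallest P, up to 4 called members of each of 50 gene lists, and the genes the study names. Lists are described by counts and medians. Unnamed probe sets over 2-fold were added. The members and lists were chosen with earlier results of these data known. The fit was tested on simulated data. The liver arrays and the qPCR were not used here.

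Alternatives were a fit of groups IM5 and CON only, array weights, median centring, the methods' t-test, 1 probe set per gene name, quantile normalization, omission of the dimmest 30%, a prior that is trended and robust, a block for the replicate number, and omission of each pig in turn. Same-numbered pigs were checked for shared deviations, and the numbers were not taken as pairs.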

Additional observations from a re-analysis of the deposited data

Results flagged for a closer look

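In 5 of the 164 groups of 6 pigs examined (each named probe set in each of the groups IM5 and CON), 1 pig lay far from the others, with a gap to its nearest neighbour of more than 0.625 of the range of the group. Chance alone marks about 1 group in 20, which is 8.2 of 164. For the probe set shared by LOC100512656 and LOC100626199, IM5 replicate 2 was at 4.63, and the nearest pig of its group at 7.36. For LOC100512052, IM5 replicate 3 was the lowest at 3.85, against 4.27 for the nearest. For LOC100155374, IM5 replicate 3 was the highest at 3.79, with the nearest at 3.40. For CRABP2, CON replicate 3 was the highest at 5.34, with the nearest at 4.44. For ATP5G1, IM5 replicate 1 was the highest at 9.85, with the nearest at 9.18. CON replicate 1 and IM10 replicate 1 were also the highest of their groups for this gene, at 9.62 and 9.90.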

How the results depend on the processing

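With the methods' t-test 169 transcripts rose and 182 fell, against 276 and 256 in the fit of all arrays, and 29 of the listed pathway transcripts passed, against 45. Of the 276 rises and 256 falls, 159 and 167 also passed that test. Leaving out the dimmest 30% left 134 rises and 148 falls, and 394 differences of group IM5 from group IM10 against 698, by construction with fewer transcripts tested. The other settings gave between 256 and 309 rises and between 223 and 295 falls. Median centring gave 309 rises and 223 falls, and it moved the median of all transcripts by 0.01. Leaving out each pig in turn gave 254 to 353 rises and 264 to 340 falls, and it gave 650 to 892 differences of group IM5 from group IM10, while no setting gave a transcript of group IM5 against group CON past an adjusted p of 0.05. Of 71 named calls, 37 passed under each of the 21 alternatives that held their probe set. Some of the 37 were absent from the setting without the dimmest 30% or with 1 probe set per gene name, and were not tried there. Of the 71, 34 were lost without at least 1 pig and 22 with the methods' t-test. Lost with that t-test were both calls on BAG2 and the smaller ones on PFKFB3 and ENPP4. The others were SLC9A7, SLC12A2, CD55, SOGA3, CRABP2, RBP7, GBE1, BEST3, BCO2, MSMO1, PHGDH, IFRD1, RCAN1, KLRK1, MIR98, HSD11B1, CTGF and XIRP1. Deviations of same-numbered pigs of groups IM5 and CON correlated between -0.012 and 0.222, and 1 of 6 numbers matched best. That was number 1, at 0.222. Its pigs had the highest summed log2 level of nuclear oxidative phosphorylation genes in both groups, 15.16 in group IM5 and 14.97 in group CON. What the pigs of number 1 had in common was not tested. With the replicate number as a block, 295 transcripts rose, 295 fell and 0 passed an adjusted p of 0.05, and 4 of the named calls were lost. The block gave 766 differences of group IM5 from group IM10. Among named transcripts that did not pass, the sign turned for OLFM3 (-0.065 to 0.165 without single pigs, -0.065 without IM5 replicate 2, -0.02 without CON replicate 2 and -0.016 without CON replicate 4), for ATP5G1 (-0.166 at the lowest without IM5 replicate 1, 0.003 with array weights and 0.025 without CON replicate 1) and for ATF5 (-0.209 at the lowest without IM5 replicate 3, 0.003 without IM5 replicate 4, 0.005 without IM5 replicate 6 and 0.005 without CON replicate 4); the cause was not tested. The settings for group IM5 against group IM10 and for the permutation tests were chosen after the values had been seen. Signal limits the result too, since 142 of the rises and 109 of the falls lie among the dimmest 30%.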
